A study of Mus musculus with 6 samples.

Results

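The growth hormone, STAT5 and IGF1 axis of the liver was described here from 10 genes chosen by name. They were the growth hormone receptor gene Ghr, the transcription factor genes Stat5a and Stat5b, the secreted growth factor gene Igf1 and its carrier gene Igfals, the feedback genes Socs2 and Cish, the repressor gene Bcl6, and the IGF-binding protein genes Igfbp1 and Igfbp2. A probe belonged to a member when its transcript accession, without the version, was paired with that gene in the RefSeq table. This gave 8 of the 10 genes, with 1 probe each, among 13971 genes named on the array. No probe was paired with Ghr or Stat5b, so neither is described. The probes were GE36151 (Stat5a), GE35590 (Igf1), GE34624 (Igfals), GE33503 (Socs2), GE35215 (Cish), GE35112 (Bcl6), GE34625 (Igfbp1) and GE1563053 (Igfbp2). All 8 lay above background on all 6 arrays. Closest to the background threshold were Bcl6 (2.0 to 3.6 times it), Cish (2.3 to 5.4 times) and Stat5a (3.0 to 3.9 times). Igf1 stood at 114 to 196 times the threshold.

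RNA came from liver tissue of c57bl/6 mice aged 14 months. Wild-type livers gave 3 arrays (replicates 1, 2 and 4). The other 3 arrays (replicates 1, 3 and 4) held liver RNA of animals with a transgene that places human c-Src behind the mouse metallothionein promoter, which zinc induces and which is active in more than 1 cell type. By the study's notes zinc was mostly not needed and no carcinogen was given, and whether these animals received zinc is not stated. The notes also say that the missing replicate of each group was dropped for low signal. Every transgenic label names its own mouse and every wild-type label its own control, while sex, and whether a liver held tumour, are not given.

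In this axis, pituitary growth hormone binds its receptor on hepatocytes, the receptor-bound kinase JAK2 phosphorylates STAT5A and STAT5B, and STAT5 dimers enter the nucleus and act on target genes. Igf1 and Igfals are targets through which the liver supplies circulating IGF1, while Socs2 and Cish are induced by STAT5 and damp the signal. BCL6 is a repressor that can occupy STAT5 sites. In mice, males release growth hormone in pulses and females more continuously, and many genes with sex-biased liver expression depend on that pattern through STAT5.

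STAT5 recognises the palindrome TTCNNNGAA, and 1 promoter window is shown for each of the 3 members that held a match, so that the sites can be read beside the signals below. For a member with several matching windows, the one with the most matches to the motifs searched is given. Windows run from 250 bases before to 50 bases after a RefSeq start site (GRCm38.p6, shown 5′ to 3′ in gene direction), and capitals mark matches to TTCNNNGAA or to the forkhead motif TGTTTAC, which do not overlap here. The Cish window is chr9:107296409-107296708 on the plus strand, the Bcl6 window chr16:23981234-23981533 on the minus strand and the Igfals window chr17:24877981-24878280 on the plus strand.
Cish: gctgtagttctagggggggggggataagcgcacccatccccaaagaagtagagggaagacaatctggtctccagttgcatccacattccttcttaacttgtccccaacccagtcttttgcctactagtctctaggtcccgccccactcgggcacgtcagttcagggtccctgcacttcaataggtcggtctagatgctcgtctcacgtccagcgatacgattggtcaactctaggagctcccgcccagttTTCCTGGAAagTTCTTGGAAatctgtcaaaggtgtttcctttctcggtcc
Bcl6: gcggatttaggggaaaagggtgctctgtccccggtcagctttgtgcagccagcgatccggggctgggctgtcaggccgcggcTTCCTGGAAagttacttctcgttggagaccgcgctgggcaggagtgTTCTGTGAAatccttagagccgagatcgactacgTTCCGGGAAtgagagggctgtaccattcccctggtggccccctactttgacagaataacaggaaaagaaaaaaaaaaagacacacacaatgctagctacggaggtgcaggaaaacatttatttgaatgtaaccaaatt
Igfals: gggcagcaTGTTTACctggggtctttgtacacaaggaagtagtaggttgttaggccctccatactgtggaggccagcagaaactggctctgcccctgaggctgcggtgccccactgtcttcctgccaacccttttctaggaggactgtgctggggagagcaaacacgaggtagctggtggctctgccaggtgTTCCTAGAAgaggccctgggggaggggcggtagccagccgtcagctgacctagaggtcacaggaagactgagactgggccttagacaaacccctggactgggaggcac

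The Cish window held 2 matches to the STAT5 motif, TTCCTGGAA beginning 0 bases and TTCTTGGAA 11 bases after the annotated start. The Bcl6 window held 3, with first bases at -168, -122 and -88 from the start, and another Bcl6 window held 1 match. The Igfals window held 1 STAT5 match at -58 and 1 forkhead match at -242, and another Igfals window held 1 STAT5 match at -236. In all, 5 of 16 member windows held TTCNNNGAA, searched on both strands, against 8.3% of 32851 promoter windows of the same length. These members include known STAT5 targets, so the count is a description of the chosen genes. TGTTTAC was found in 1 of the 16 windows and in 3.65% of all windows. Windows were given for 9 of the 10 genes, Socs2 being the exception. No match means only that these letters were not in the window.

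Each array carried 34967 mouse probes, with median signals of 53.8 to 93.4 on the wild-type and 94.8 to 117 on the transgenic arrays, and log2 values were quantile normalized to bring arrays to a common scale. Hepatocyte markers were above background on all 6 arrays for 12 of 12 tested genes, and their mean log2 signal was 14.43 to 14.52 in wild-type and 14.46 to 14.58 in transgenic livers. Markers of 8 other cell types were measured, and each list had members above background. Above background on all arrays were 7 of 7 Kupffer cell and macrophage, 9 of 12 T, B and NK cell, 5 of 7 neutrophil, 7 of 8 endothelial, 7 of 11 stellate cell and fibroblast, 5 of 7 cholangiocyte, 2 of 5 exocrine pancreas and 4 of 6 blood cell genes. Mpo, Camp, Col1a2, Cpa1 and Prss2 were above background on no array. As a check of the transgene label, Src read 7.71 to 9.67 in transgenic against 6.62 to 7.21 in wild-type livers (log2). The limma adjusted p was 0.69, and replicate 4 was the lowest transgenic array. Groups apart in this direction were seen for 10.1% of all features. The probe was named through a mouse transcript, so whether it reads the human transgene is not known. The endogenous metallothionein genes, which zinc induces, also lay higher, Mt1 at 13.71 to 14.38 against 9.72 to 11.50 and Mt2 at 9.68 to 11.06 against 4.87 to 5.85. They do not check the genotype, and since zinc exposure is not stated, it cannot be told apart from the transgene in any comparison here.

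Transgenic replicate 4 stood apart from the other 5 arrays. Of the Y-linked genes, Ddx3y, Uty and Eif2s3y were below background on it and above background on the others, while Kdm5d read 9.03 there against 8.32 to 8.74. The mean log2 signal of the Kupffer cell and macrophage markers was 10.41 on it and 9.38 to 9.85 on the others. Values of the members are therefore given with and without this array. In bulk liver tissue, a difference in the share of a cell type cannot be told apart from a difference in RNA per cell.

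No member passed the test of transgenic against wild-type livers. Of the 8 genes, 0 had a limma adjusted p under 0.05, against 0% of the 34175 features (genes and unnamed probes) tested. At an unadjusted p under 0.05 there was 1 member, Stat5a, on the lower side, where 2.72% of features lay, and 0 on the higher side, where 4.37% lay (7.09% in either direction). The members split evenly in direction, with 4 of 8 positive and a median log2 change of -0.02, beside 51.7% positive and a median of 0.02 over all features. The median size of the change was 0.29 for the members and 0.28 over all features. What differed between members was which transgenic mouse carried a deviation, as the grid of deviations by array shows. Socs2 deviated most on replicate 4, Igfbp1 on replicate 1, and Stat5a by similar amounts on all 3.

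**Figure D1:**
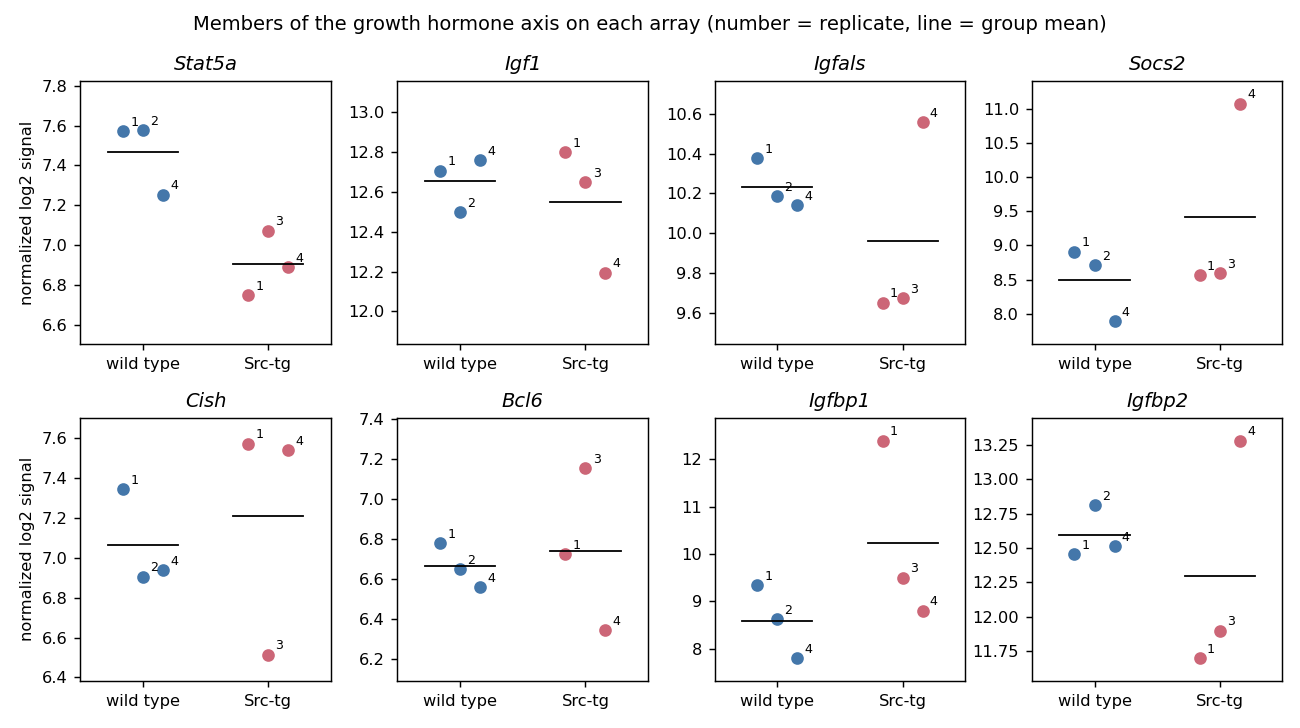
Normalized log2 signal (y axis, a separate scale for each gene) of the 8 measured members on the 3 wild-type (blue) and 3 Src-transgenic (red) arrays, with the replicate number beside each point and the group mean as a line. The groups are apart for Stat5a, and single transgenic arrays stand out for Socs2 (11.07 on replicate 4) and Igfbp1 (12.39 on replicate 1).

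Stat5a encodes 1 of the pair of STAT5 proteins that carry the growth hormone signal, the other being encoded by Stat5b. It read 7.57, 7.58 and 7.25 on wild-type replicates 1, 2 and 4, and 6.75, 7.07 and 6.89 on transgenic replicates 1, 3 and 4 (log2 signal). Every transgenic array lay below every wild-type array, which held for 1 of the 8 members and for 5.9% of all features, while 0 members and 10.1% of features had the groups apart the other way (16% in either direction). The group means were 7.47 ± 0.19 and 6.90 ± 0.16 (SD, n = 3 each), a log2 change of -0.56 ± 0.20 (SE) with a 95% interval from -1.06 to -0.07. The limma adjusted p was 0.69, and the exact permutation p (two-sided) was 0.1, which is as small as 3 arrays against 3 allow. Leaving out transgenic replicate 4 kept the log2 change at -0.56, and over all alternatives it was -0.67 to -0.42. On the deposited scale the groups overlapped, with signals of 115 to 164 in wild-type and 116 to 168 in transgenic livers. Of the marker lists, that of T, B and NK cells had its groups apart in the same direction as Stat5a, with a mean log2 signal over 12 tested genes of 6.66 to 6.74 in wild-type and 6.22 to 6.64 in transgenic livers, and 9 of the 12 above background on all arrays. Its part in the Stat5a value was not tested.

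Igf1, the growth factor through which growth hormone acts on body growth, was strongly detected in every liver. Its log2 signal was 12.71, 12.50 and 12.76 for wild type and 12.80, 12.65 and 12.19 on transgenic replicates 1, 3 and 4. Replicate 1 was the highest of the 6, replicate 3 lay inside the wild-type range and replicate 4 was the lowest. The log2 change was -0.11 ± 0.23 (SE), with a 95% interval from -0.67 to 0.45 (limma adjusted p = 0.90), and without replicate 4 it turned to 0.07 ± 0.22. Median scaling in place of quantile normalization gave -0.46 for Igf1 and -0.46 for Igfals.

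Igfals encodes the acid-labile subunit, which holds IGF1 in a stable circulating complex. Its log2 signal was 10.38, 10.19 and 10.14 in wild-type and 9.65, 9.67 and 10.56 on transgenic replicates 1, 3 and 4. Transgenic replicates 1 and 3 were below every wild-type array, whereas replicate 4 was above them all. The log2 change was -0.27 ± 0.30 (SE) over all 6 arrays (limma adjusted p = 0.80), and -0.57 ± 0.21 without replicate 4 (limma adjusted p = 0.82). Igf1 and Igfals, both hepatic STAT5 targets, thus stood at opposite ends on replicate 4, Igf1 at -0.46 and Igfals at 0.32 from their wild-type means.

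Of the feedback genes, Socs2 encodes a SOCS-box protein that limits growth hormone receptor signalling. Its signal was 326, 356 and 251 for wild type and 405, 471 and 2607 on transgenic replicates 1, 3 and 4, on the deposited scale. After normalization these were log2 values of 8.90, 8.71 and 7.89 against 8.56, 8.60 and 11.07. Replicates 1 and 3 lay within the wild-type range, and replicate 4 was 4.48-fold above the next highest array. A gap at least that large on replicate 4 was seen for 390 features, or 1.14% of those tested. The log2 change over all 6 arrays was 0.91 ± 0.73 (SE), with a 95% interval from -0.87 to 2.68 (limma adjusted p = 0.75). Without replicate 4 it was 0.08 ± 0.36 (limma adjusted p = 0.97). On replicate 4 the Kupffer cell markers were high, and Ddx3y, Uty and Eif2s3y, but not Kdm5d, were below background. The part of either in this value was not tested.

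Cish encodes a related STAT5-induced inhibitor and carries the tandem motif matches shown above. It read 7.34, 6.90 and 6.94 in wild-type and 7.57, 6.51 and 7.54 on transgenic replicates 1, 3 and 4 (log2 signal). Replicates 1 and 4 were above every wild-type array and replicate 3 below them all. The log2 change was 0.15 ± 0.35 (SE, limma adjusted p = 0.91), and it was -0.02 without replicate 4 and -0.04 without replicate 1. On replicate 4 both feedback genes lay above every wild-type array, Cish 0.48 and Socs2 2.57 above their wild-type means, and the difference in size was not tested.

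Bcl6, the repressor with 3 motif matches in its inner promoter window, read 6.78, 6.65 and 6.56 in wild-type and 6.72, 7.15 and 6.34 on transgenic replicates 1, 3 and 4 (log2 signal). Replicate 3 was the highest and replicate 4 the lowest of the 6 arrays, so the transgenic values enclosed the wild-type ones. The log2 change was 0.08 ± 0.26 (SE), with a 95% interval from -0.55 to 0.70 (limma adjusted p = 0.94), and 0.28 ± 0.24 without replicate 4. On replicate 4 Bcl6 and Socs2 deviated in opposite directions from their wild-type means, at -0.32 and 2.57.

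Igfbp1 encodes a short-lived IGF-binding protein that insulin represses in liver and that several kinds of stress induce. Its deposited signal was 459, 333 and 237 in wild-type and 5531, 829 and 571 on transgenic replicates 1, 3 and 4. The normalized log2 values were 9.33, 8.61 and 7.80 against 12.39, 9.49 and 8.80. Replicate 1 stood 7.46-fold above the next highest array, a gap reached by 31 features (0.0907%) on that array. Replicate 3 was just above the wild-type range and replicate 4 inside it. The log2 change was 1.65 ± 0.97 (SE), with a 95% interval from -0.70 to 3.99 (limma adjusted p = 0.70). It was 0.57 ± 0.52 without replicate 1 and 2.36 ± 0.95 without replicate 4. The wild-type replicate 4 spot lay in a bright patch of its array, 1.67 above its neighbourhood's usual log2 level, and after local correction of patches the change was 2.56.

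A list of immediate early and heat shock genes also stood high on transgenic replicate 1. Of its 17 genes 15 were tested, and these had a mean 1.76 above wild type there. The mean was 0.45 and 0.30 on replicates 3 and 4 and -0.17 to 0.13 in wild-type. Genes above their wild-type mean numbered 15, 12 and 10 on transgenic replicates 1, 3 and 4. On wild-type replicates 1, 2 and 4 they numbered 10, 7 and 4. The share of all features above their wild-type mean was not counted. Because it was added after the data were seen, the list describes these data only and is no test. Its part in the Igfbp1 result was not tested. The 13 tested insulin and fasting genes had a mean 0.04 above wild type on replicate 1. Among them, G6pc, which encodes the last enzyme of glucose output, read 12.74 there against 11.48 to 11.86 in wild type. Pck1, which encodes a gluconeogenic enzyme, read 13.55 against 13.50 to 13.87.

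Igfbp2 encodes an IGF-binding protein abundant in liver. It read 12.46, 12.81 and 12.51 in wild-type and 11.70, 11.90 and 13.28 on transgenic replicates 1, 3 and 4 (log2 signal). As for Igfals, replicates 1 and 3 lay below every wild-type array and replicate 4 above them all. The log2 change was -0.30 ± 0.44 (SE, limma adjusted p = 0.85) over all arrays and -0.80 ± 0.24 without replicate 4, and the latter did not pass either (limma adjusted p = 0.82).

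**Figure D2:**
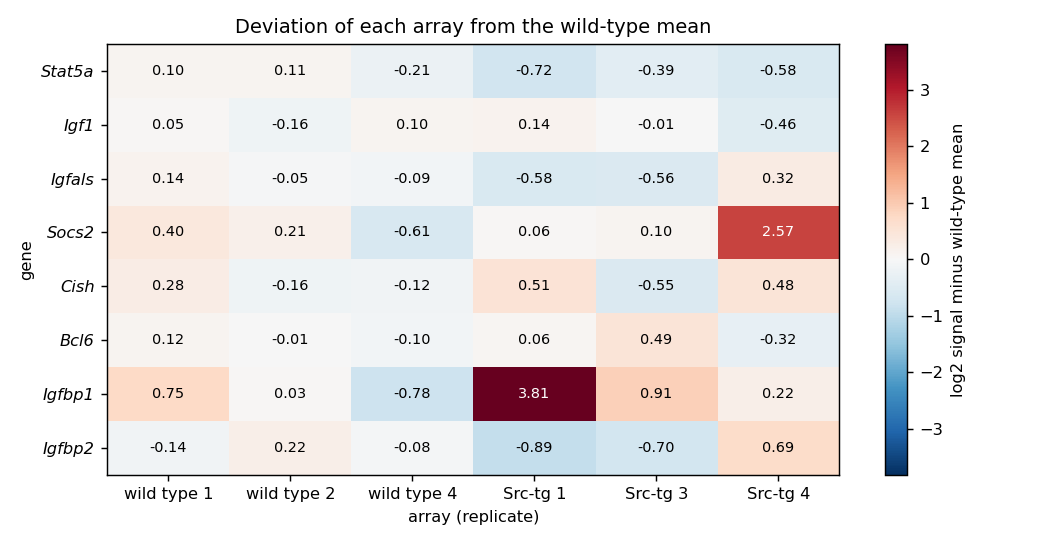
Log2 signal minus the wild-type mean for each member (rows) on each array (columns), red above and blue below, with the value in each cell. Stat5a is negative on all 3 transgenic arrays, Igfals and Igfbp2 are negative on transgenic replicates 1 and 3 and positive on replicate 4, and the largest cells are Igfbp1 on replicate 1 (3.81) and Socs2 on replicate 4 (2.57).

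When transgenic replicate 4 was left out, both remaining transgenic arrays lay below all wild-type arrays for Stat5a, Igfals and Igfbp2, 3 of the 8 members, against 10.4% of all features. Igfbp1 was the 1 member whose replicates 1 and 3 were above all wild-type arrays, against 15% of all features (25.4% in either direction). In that fit, 0 members and 0.00293% of features had a limma adjusted p under 0.05. On replicate 4 itself, 3 members (Socs2, Igfbp2 and Igfals) had their highest value of the 6 arrays, where 18.8% of all features did, and Socs2 was the 1 member more than 0.5 above the next array, where 5.27% of features were.

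**Figure D3:**
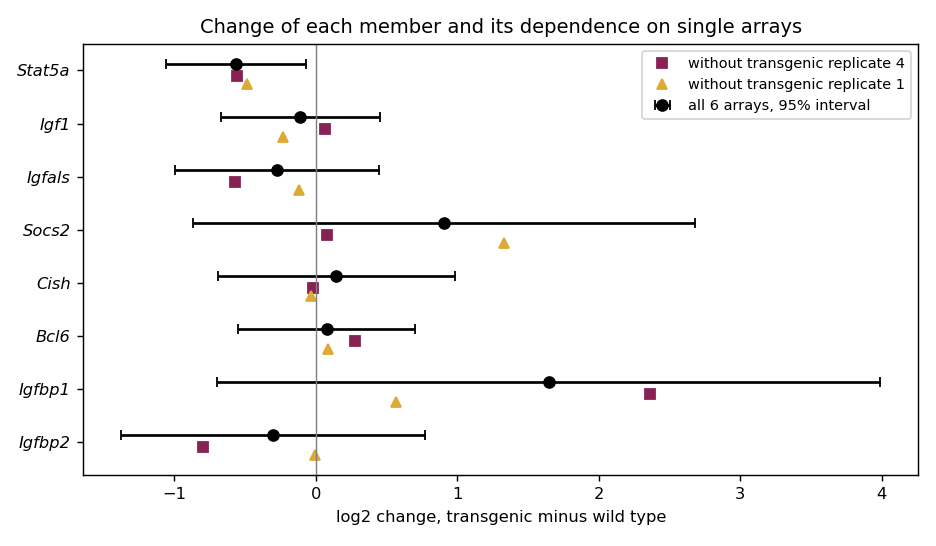
Log2 change of each member, transgenic minus wild type (x axis), over all 6 arrays with its 95% interval (black), without transgenic replicate 4 (squares) and without transgenic replicate 1 (triangles). The interval lies below 0 for Stat5a alone, and leaving out a single array moves Socs2 from 0.91 to 0.08 and Igfbp1 from 1.65 to 0.57.

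Upstream of these genes, 14 genes of growth hormone receptor signalling and its brakes were tested, and 0 passed in either direction. Their median log2 change was -0.07, with 6 of 14 positive, beside 51.7% positive over all features. Prlr, the prolactin receptor gene whose product signals through the same kinase, was above background on 0 wild-type and 3 transgenic arrays. It was at least 1.16-fold higher in the latter, a bound that sets the transgenic mean against the lowest signal called above background. Its log2 values were 5.35, 4.14 and 4.46 against 5.53, 5.42 and 6.39, highest on replicate 4 (limma adjusted p = 0.69). Wild-type replicate 1 and transgenic replicate 3 were thus close, though called differently. Of all probes, 62.6 to 69.0% were above background on wild-type and 68.8 to 71.7% on transgenic arrays. Stat3 had a log2 change of 0.51 ± 0.22, with transgenic arrays at 10.14 to 10.35 above the wild-type 9.43 to 9.96, opposite in sign to Stat5a (limma adjusted p = 0.69). Median scaling brought Stat3 to 0.32. The receptor adaptor gene Grb14 had -0.82 ± 0.42 (SE), and -0.52 without wild-type replicate 1. Sirpa was above background on 1 array of each group, so its -1.06 ± 0.55 rests mostly on signals at background. It lay in a patch on wild-type replicate 4, and it had -0.54 without that array and -0.66 after local correction. The kinase gene Jak2 was not above background on any array.

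Around IGF1, 11 genes of ligands, receptors, binding proteins and proteases were tested, and 0 passed. Their median log2 change was 0.00, with 6 of 11 positive, and median scaling brought it to -0.19. The insulin receptor gene Insr had -0.45 ± 0.24 (SE), with a wild-type mean of 6.62 ± 0.34 and a transgenic mean of 6.18 ± 0.14 (SD, n = 3 each). Its transgenic arrays all lay below the wild-type ones, as for 5.9% of all features, and the change was -0.26 without wild-type replicate 1. The binding protein genes Igfbp5 and Igfbp3 had 0.42 ± 0.24 and -0.30 ± 0.26, and 0.28 and -0.14 without wild-type replicate 1. Without wild-type replicate 2 Igfbp3 had -0.50, and without transgenic replicate 3 it had -0.19. Stc2, which encodes an inhibitor of IGF-binding protein cleavage, and the IGF1 receptor gene Igf1r were not above background on any array.

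Genes whose liver expression depends on the pattern of growth hormone release had a median size of change of 0.98 (female-biased) and 0.70 (male-biased), beside 0.28 over all features. For 23 tested female-biased genes the mean deviation from wild type was 0.97 (replicate 1), 0.59 (replicate 3) and 2.90 (replicate 4) among the transgenic arrays. Their median log2 change was 0.98 (21 of 23 positive), or 0.53 without replicate 4 (18 of 23 positive). Over all features 51.7% were positive, or 52.5% without replicate 4. Of these 23, 16 were above background on all arrays. For 19 tested male-biased genes the mean deviation was -0.63, -0.45 and -1.82 on the same arrays. Their median log2 change was -0.70 (17 of 19 negative), or -0.38 without replicate 4 (15 of 19 negative). Of these 19, 18 were above background on all arrays. Median deviations were smaller in size than the means. On replicates 1, 3 and 4 they were 0.54, 0.40 and 1.81 (female-biased) and -0.23, -0.42 and -1.33 (male-biased). These lists were chosen with such a shift already known. None of these genes passed the limma test over all features. The 4 female-biased genes with the smallest p were Cyp2b9 at 4.00 ± 0.83, Cyp4a14 at 1.61 ± 0.36, Hao2 at 2.61 ± 0.59 and Cyp39a1 at 0.94 ± 0.27 (SE), and the male-biased ones were Ugt2b38 at -2.16 ± 0.59, C8b at -0.70 ± 0.20, Hsd3b5 at -2.60 ± 0.77 and Slco1a1 at -1.58 ± 0.60. Hao2 was above background on 1 of 3 wild-type arrays, so its value depends on the low end of the scale, and an offset of 50 brought it to 1.72. Ugt2b38 and Slco1a1 each lay in a patch on 1 array, and local correction brought Ugt2b38 to -0.98. Without transgenic replicate 4 Cyp2b9 had 3.29, Cyp4a14 1.29, Hao2 1.93 and Cyp39a1 0.86. In the same fit Ugt2b38 had -1.96, C8b -0.58, Hsd3b5 -1.81 and Slco1a1 -0.95. Replicate 4 was the array with the highest Socs2, Igfals and Igfbp2, the lowest Igf1 and Bcl6, and the highest female-biased and the lowest male-biased mean. On it Ddx3y, Uty and Eif2s3y were below background, while Y-linked Kdm5d was not. The part of any of these in the others was not tested.

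**Figure D4:**
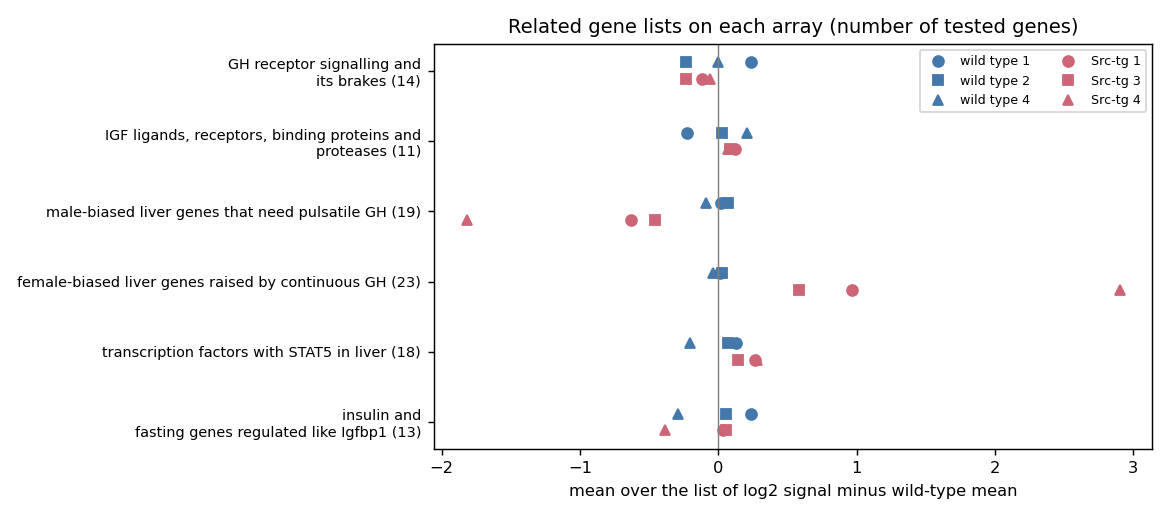
Mean over each gene list of log2 signal minus the wild-type mean (x axis), for wild-type arrays (blue) and Src-transgenic arrays (red), with the replicate given by the marker shape. The female-biased list stands at 2.90 and the male-biased list at -1.82 on transgenic replicate 4, while the growth hormone signalling and IGF lists lie between -0.23 and 0.23 on every array.

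Transcription factors that act with STAT5 in liver gave a median log2 change of 0.15 over 18 tested genes (10 positive), with 0 past the adjusted threshold. This list shares Cux2, Trim24 and Tox with the female-biased list. Trim24, a nuclear receptor cofactor, had 0.98 ± 0.34 (SE) and was highest on replicate 4 at 9.01. Esr1, the estrogen receptor alpha gene, was above background on 0 wild-type and 3 transgenic arrays. By the same bound it was at least 1.12-fold higher (limma adjusted p = 0.69). Its log2 change, taken against wild-type signals at background, was 1.14. It was 0.65 without wild-type replicate 4 and 0.45 with an offset of 50. Cebpa had -0.51 ± 0.22 and Foxa3 0.70 ± 0.31, the latter 0.39 after local correction of patches. Of the 13 insulin and fasting genes 0 passed the threshold, with a median of -0.21. Foxo3, in a patch on transgenic replicate 3, had 0.53 ± 0.26, and 0.33 without that array. The lipogenic regulator gene Srebf1 had -0.71 ± 0.37, -0.44 without transgenic replicate 4 and -0.47 without wild-type replicate 1. The stress-response factor gene Atf4 had 0.29 ± 0.21, 0.45 without transgenic replicate 3 and 0.01 with median scaling. Its target Asns had -0.56 ± 0.41, with values from -0.94 without wild-type replicate 4 and -0.85 without transgenic replicate 1 to -0.34 without wild-type replicate 2, and -0.18 with the replicate block.

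Profiles over the 6 arrays were also compared with that of Igf1, after scaling each to mean 0 and SD 1. Of 9615 other genes above background on all arrays, the 5 with the smallest root mean square difference from Igf1 were BC052040 (0.12), Cryl1 (0.17), Ces2e (0.18), Zdhhc25 (0.21) and Eif4a1 (0.23). Like Igf1, each of these 5 had its lowest value on transgenic replicate 4, which is tied to their being chosen for a profile like that of Igf1. Bcl6 was the nearest member, at rank 1306 with 0.96, while Igfals, Igfbp2 and Socs2 were among the farthest, at ranks 8752, 9368 and 9558. These names describe the likeness over 6 arrays only.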

How the data were processed

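Liver RNA of 6 mice was made into biotin-labelled cRNA by linear amplification, per the labels' protocols, and hybridised to 1-colour arrays. Per the file headers, the deposited intensity of a spot is background-subtracted, and a second deposited intensity column, also held in the authors' value table, was divided by 1 constant per array. Of 35587 spots, 620 control spots were left out. Low signals were raised to a floor, percentile 1 of the positive signals on that array (4.72 to 5.75), and log2 values were quantile normalized. Probes were named through RefSeq accessions (GRCm38.p6), 14763 probes for 13971 genes, with the brightest probe standing for a gene. A probe was above background when its signal was over a threshold set from 570 control spots, their median plus 3 times their scaled median absolute deviation (33.0 to 50.6). Neither scanner nor image analysis software was named in the sources used here.

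The test was limma 3.58.1, run in R 4.3.3 (two-sided, Benjamini-Hochberg over 34175 features). The fit and the local deviation used for patches were tested on simulated data, and the other steps were not. The members, lists and tests were chosen with earlier results of these data known. All members were named, with the 4 genes of smallest p in each list, and the 5 profiles nearest to Igf1. Jak2, Igf1r, G6pc and Pck1 were named after their values were seen. Patches were sought as local median deviations within 4 rows and columns, over 0.5 either way. No slide or scan batch was among the columns used here. The p-values set the difference between groups against the spread between samples within groups. The labels say nothing about a shared litter or day, so a difference in either between the groups cannot be told apart from genotype. Alternatives were another offset, scaling, filter, spread model, array weights, single probes, patch correction, a replicate block and each array left out.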

Additional observations from a re-analysis of the deposited data

How the results depend on the processing

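No member passed the adjusted threshold under any of 15 alternatives, in 120 member values with adjusted p from 0.57 upwards. Direction turned in 8 of them. The filter for probes above background on all arrays, the spread model and single probes could not turn a direction. Each of them leaves the log2 change of a member as it was. The authors' value table nearly repeats median scaling, with -0.46 for Igf1 in both. Igf1 had 0.0068 with array weights and 0.038 after local correction of patches. With the replicate block Bcl6 had -0.14, Igfbp2 0.0061 and, outside the members, Stc2 0.00070. The labels give replicate numbers 1 and 4 to both groups, and no source says that these mice were paired. Deviations of same-numbered arrays correlated at 0.06 for each number. The block fit made 0 calls among all features, with 1348 at an unadjusted p under 0.05 against 2424 without the block. Wild-type replicate 2 and transgenic replicate 3 share their number with no array of the other group. The block fit therefore takes its change from replicates 1 and 4 alone. In its values, an effect of pairing cannot be told apart from the loss of the other arrays. Leaving out single arrays gave log2 changes of -0.23 to 0.069 for Igf1 (turned without transgenic replicate 4), -0.036 to 0.49 for Cish, -0.13 to 0.28 for Bcl6 (turned without transgenic replicate 3), 0.08 to 1.33 for Socs2 and 0.57 to 2.36 for Igfbp1. Stat5a (-0.67 to -0.49), Igfals (-0.57 to -0.12) and Igfbp2 (-0.80 to -0.0036) kept their sign in those fits. Calls among all features numbered 0 to 1 when single arrays were left out, the features being unnamed probes, and 1, an Ang probe, when each probe was tested separately. Median scaling turned the split of features with unadjusted p under 0.05 from 61.6% higher to 41.8% higher, local correction gave 47.6% and the block 50.4%. Median scaling also moved Igf1 to -0.46, Igfals to -0.46 and Igfbp2 to -0.57. The median of the IGF list was -0.19 with median scaling and 0.26 after local correction, that of the growth hormone signalling list 0.14 without wild-type replicate 1, and that of the insulin and fasting list 0.08 without transgenic replicate 4. The cause was not tested. The number of arrays limits what any of these comparisons can show.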
